A study of Sus scrofa with 8 samples.

Results

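Resting liver of sows that were not lactating (Sus scrofa, the domestic pig) was described from 4 arrays, each hybridised with a pool of liver RNA, out of 8 arrays in the series. The other 4 arrays carry liver RNA of lactating sows and were not used. Per the series design text, 8 non-lactating sows were sampled and equal amounts of RNA from 2 of them made each pool, so a pool is an average of 2 animals and n is 4 pools throughout. The labels give the animals as female controls and the tissue as liver, and the sources used here give no breed, age, parity or feeding state. All 4 pools were taken, the Affymetrix control probe sets were dropped, and each gene symbol was represented by its probe set of highest mean in these 4 pools. This left 8147 genes from the 23999 probe sets that are not controls, and 12765 probe sets with no symbol or several were not ranked.

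Hepatocytes, which make up most of the liver's mass, secrete most of the proteins of blood plasma, turn amino nitrogen into urea, store and release glucose, assemble lipoproteins, make bile acids and oxidise or conjugate foreign compounds. Kupffer cells, the resident macrophages, as well as sinusoidal endothelial cells, stellate cells and the cholangiocytes that line bile ducts make up smaller shares of the tissue. A whole-liver RNA sample mixes them all, and from such a sample a low signal of a cell type's markers cannot separate few cells from little RNA per cell.

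The values are log2 signals, in which a difference of 1 is a doubling of brightness. A probe set's brightness depends on how well its probes bind as well as on how much RNA there is, so the order below is an order of array signal and not of transcript number. Among the 2300 genes with more than 1 probe set, the brightest and the dimmest probe set of the same gene differed by a median of 2.03 log2 units, and in 17.2% of them by 4 or more. DPYS, dihydropyrimidinase of pyrimidine breakdown, had probe sets at 13.3 and 3.82. APOB, the structural protein of very low density lipoprotein, had probe sets at 13.9 and 4.57. SLA-1, a class I histocompatibility antigen, FN1, the plasma and matrix protein fibronectin, and CXCL2, a chemokine that attracts neutrophils, were the other genes with the widest gaps, of 9.44, 8.87 and 8.65. More than 1 probe set was held by 26 of the 100 brightest genes and by 28.2% of all genes.

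The 4 arrays had the same mean of 6.79 over all probe sets. The processing gives every array the same distribution of values before probes are combined, so this mean says nothing of depth. Across probe sets the arrays correlated with each other at 0.992 to 0.994. This describes likeness only, as probe sets depend on each other. Of the genes, 48 to 90 differed by 2-fold or more between any 2 pools, and 87 to 93 of the 100 brightest were shared by any 2 pools. The first principal component carried 45.1% of the variance and set pools 1 and 2 against pools 3 and 4. The second carried 32.5% and set pools 1 and 4 against pools 2 and 3, and the third and last carried 22.4%. Pool 1 stood apart in the control probe sets that compare the 3′ with the 5′ end of the same transcript. Its mean difference over actin, GAPDH and EF1a was 5.02 log2 units, against 4.21, 4.14 and 4.49 in pools 2, 3 and 4, and it was the highest for each of the 3 transcripts. In every pool the 3′ end was the brighter, by 6.17 to 7.02 for actin, 3.30 to 4.45 for GAPDH and 2.96 to 3.59 for EF1a. Such a difference grows as RNA is shortened from its 5′ end, and its part in the ranking was not tested. Batches of scanning or slide were not examined, as nothing on them was used.

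The mean signal of the 8147 genes ran from 2.99 to 15.2, with a median of 7.74 and quartiles at 5.98 and 9.31. The brightest gene was ALB, albumin, the main carrier and osmotic protein of plasma, at 15.20, 15.20, 15.22 and 15.20 in pools 1 to 4. TF, transferrin, which carries iron, followed at 15.02, 15.04, 15.04 and 15.04. HP, haptoglobin, which binds free haemoglobin, was at 14.97, 14.98, 15.01 and 14.99. No 2 of these 3 genes overlapped in any pool. AMBP, the precursor of alpha-1-microglobulin and bikunin, had 14.86, 14.84, 14.85 and 14.85, and APOC3, an apolipoprotein of triglyceride-rich particles, had 14.82, 14.88, 14.86 and 14.79, and these ranges overlapped. Below them the order is loose. Only 4 of the 24 pairs of neighbouring ranks among the 25 brightest genes, and 4 of the 99 among the 100 brightest, had pool values that did not overlap.

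Plasma proteins filled the top of the ranking. Of the 25 brightest genes, which lay between 14.3 and 15.2, 14 belonged to the lists of secreted plasma and acute phase proteins and 7 to the lists of metabolic enzymes and metal-binding proteins, with MT1A in both. Of the 100 brightest, at 13.5 or above, 36 belonged to the same secreted and acute phase lists, MT1A included, and 25 to the metabolic lists. Ribosomal proteins numbered 13, and none of the 100 was a marker of the other tissues examined. The first 25 also held GC, the vitamin D binding protein, AHSG, fetuin A, TTR, transthyretin, which carries thyroid hormone and retinol binding protein, HPX, hemopexin, which binds haem, C3, the central component of complement, and CFB, factor B of its alternative pathway. SERPINA1, the inhibitor of neutrophil elastase, was among them as well, and so were FN1 and LOC100153899, annotated as an alpha-1-antichymotrypsin, which stand in none of the lists. The enzymes and metal-binding proteins in the first 25 included MT1A, a metallothionein, FTL, the light chain of ferritin, CAT, catalase, CYP3A39 and CYP2E1, cytochromes P450, and GSTA1, a glutathione transferase. CCL16, a chemokine that the liver expresses strongly in humans, stood at 14.4, and RPS29, a protein of the small ribosomal subunit, closed the 25 at 14.3. LOC100515155 ranked sixth at 14.8, and its annotation names no protein.

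**Figure D1:**
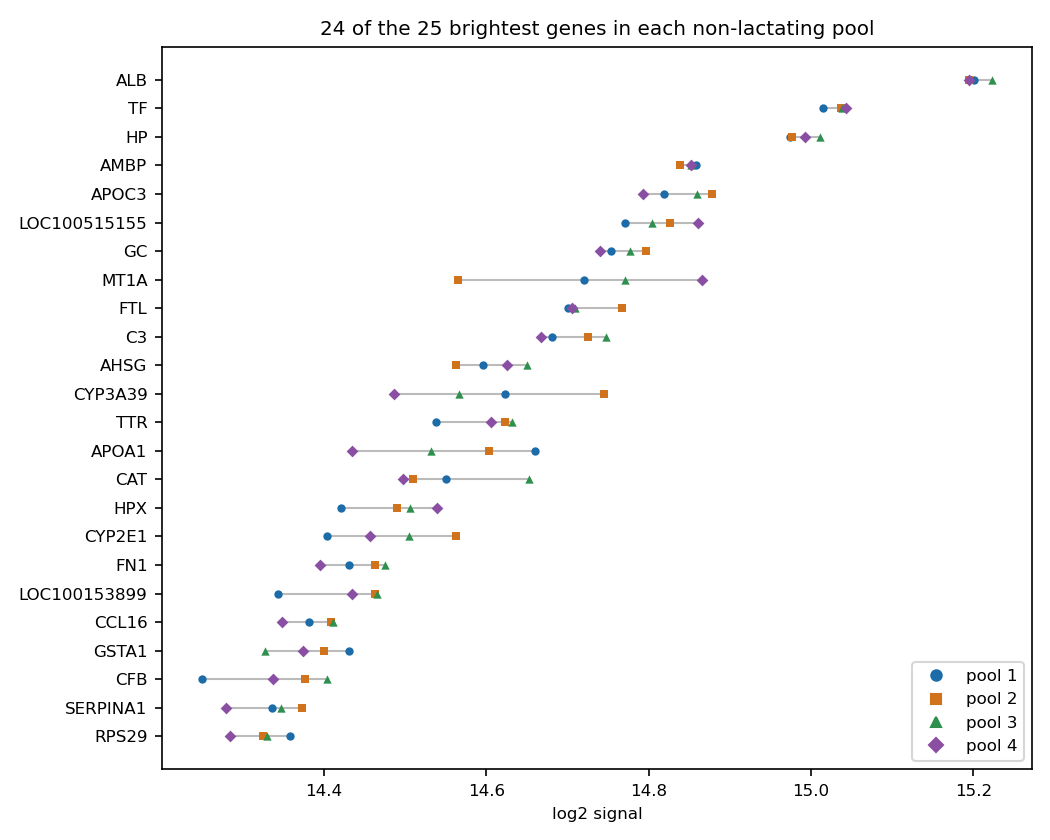
Log2 signal of 24 of the 25 brightest genes in each of the 4 non-lactating pools, 1 symbol per pool with a grey line over the range. The genes lie between 14.3 and 15.2, and most neighbouring genes overlap in range.

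Against all genes, every group of secreted liver proteins except the hormones and growth factors lay high. In the lists used here, percentile means the share of the 8147 genes that a gene outranks, and 50 is the middle by construction. The 15 measured plasma carrier proteins had a median percentile of 99.6, with 9 of them among the 100 brightest genes. The 16 acute phase proteins had a median of 98.9, the 18 protease inhibitors 98.8, the 15 apolipoproteins and lipoprotein assembly proteins 98.1, the 14 coagulation and fibrinolysis proteins 97.9 and the 22 complement proteins 97.8. All 14 coagulation genes were above the upper quartile, led by FGG, the fibrinogen gamma chain, at 14.2, PLG, plasminogen, at 14.2, and F9, the Christmas factor, at 13.9. SERPINC1, antithrombin, was the dimmest at 11.4, and F5, factor V, had 11.48, 11.88, 12.09 and 11.64.

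Apolipoproteins spanned most of the scale. APOC3 at 14.8, APOA1, the main protein of high density lipoprotein, at 14.6 and APOB at 13.9 led them. APOE, the ligand for hepatic uptake of remnants, had 13.70, 13.71, 13.74 and 13.74. LIPC, hepatic lipase, was at 7.04, 7.60, 7.89 and 7.50, and APOA4, an apolipoprotein that the intestine makes in quantity, at 6.29, 6.66, 7.56 and 7.57. Both were near or below the median of all genes.

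Acute phase proteins divided into a bright and steady group and a dimmer, variable one. HP, MT1A, HPX, SERPINA1, FGG, and ITIH1, ITIH2 and ITIH3, heavy chains of the inter-alpha-trypsin inhibitors, which bind hyaluronan, were all at 13.7 or above with SDs of at most 0.13. CRP, C-reactive protein, had 10.29, 11.11, 11.68 and 11.54. HAMP, hepcidin, the hormone that limits iron export from cells, had 11.33, 10.38, 10.60 and 11.25. LBP, lipopolysaccharide binding protein, had 6.74 in pool 1 and 7.91, 7.85 and 7.82 in pools 2 to 4. SAA4, which belongs to the serum amyloid A family, ran from 6.38 in pool 2 to 11.09 in pool 3. The 4 genes did not share an order of pools.

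The hormones and growth factors of the liver were more mixed, with a median percentile of 72.8 over 14 measured genes. AGT, angiotensinogen, at 13.7, FETUB, fetuin B, at 12.9, and IGFBP1, which binds insulin-like growth factors, at 12.1 were the brightest. IGF1, the growth factor that the liver secretes in response to growth hormone, was near the middle of all genes at 7.66, 8.13, 7.81 and 8.07. IGFALS, the acid labile subunit that keeps it in the circulation, was at 6.67, 6.70, 6.61 and 6.58.

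**Figure D2:**
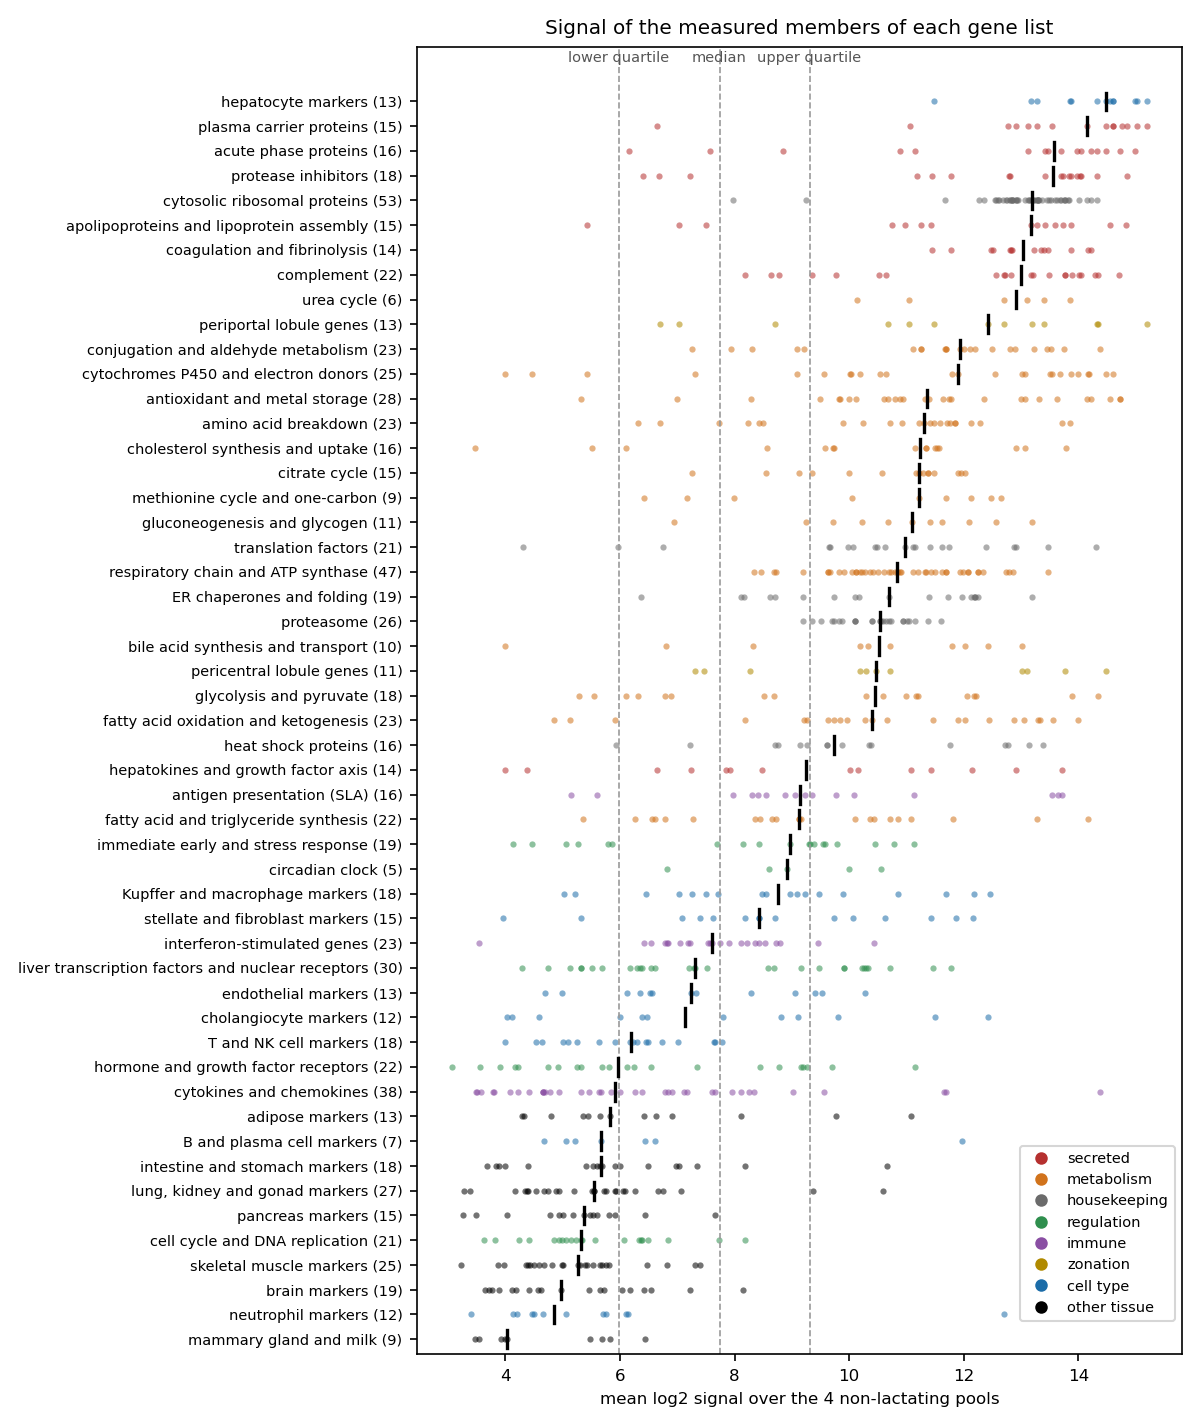
Mean log2 signal over the 4 pools of every measured member of the 51 lists with at least 5 of them (number in brackets), ordered by the list median (black bar) and coloured by the kind of list. Dashed lines mark the quartiles and the median of all 8147 genes at 5.98, 7.74 and 9.31, and hepatocyte markers lie at the top and mammary genes at the bottom.

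Metabolic genes lay high in every list except that of fatty acid and triglyceride synthesis. Of the 52 lists of all kinds, 27 had a median percentile above 75, and the other metabolic lists were among them. The 6 urea cycle and ammonia genes had a median percentile of 97.6. GLUD1, glutamate dehydrogenase, which releases ammonia, had 13.78, 13.94, 13.90 and 13.79. ASS1, argininosuccinate synthase, had 13.26, 13.53, 13.36 and 13.48, and GLUL, glutamine synthetase of the pericentral hepatocytes, had 12.82, 12.85, 13.52 and 13.22. ARG1, arginase, had 13.06 in pool 1 and 12.59, 12.58 and 12.60 in pools 2 to 4. ASL, argininosuccinate lyase, at 11.04 and OTC, ornithine carbamoyltransferase, at 10.1 were dimmer but still above the upper quartile.

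Amino acid breakdown had a median percentile of 93.0 over 23 genes, with CDO1, cysteine dioxygenase, at 13.7 and GOT2, the mitochondrial aspartate aminotransferase, at 12.3. The 9 methionine and one-carbon genes had a median of 92.6, led by BHMT, which remethylates homocysteine from betaine, at 12.6, CTH, cystathionase, at 12.5 and GNMT, glycine N-methyltransferase, at 12.1. Gluconeogenesis and glycogen had a median of 91.9 over 11 genes. FBP1, fructose bisphosphatase, was at 13.2 in the mean, and PCK1, the cytosolic phosphoenolpyruvate carboxykinase, at 11.08, 10.79, 10.89 and 9.96, lowest in pool 4.

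Fatty acid oxidation and ketogenesis had a median percentile of 87.2 over 23 genes, and 17 of them were above the upper quartile. SCP2, sterol carrier protein, at 14.0, ECHS1, the short chain enoyl-CoA hydratase, at 13.6 and ACSL1, which activates long chain fatty acids, at 13.3 led the list. ACADVL, the very long chain acyl-CoA dehydrogenase, was at only 4.54, 4.82, 5.09 and 4.97, and PPARA, the nuclear receptor that drives these genes, at 5.29, 4.92, 5.11 and 5.20. Both are known to act in liver, and as the ranking is by probe set, their place gives no order of transcript amounts. Fatty acid and triglyceride synthesis had a median of 72.3 over 22 genes. FABP1, the liver fatty acid binding protein, at 14.2, SCD, stearoyl-CoA desaturase, at 13.40, 13.62, 12.91 and 13.20 and FASN, fatty acid synthase, at 12.08, 12.002, 11.31 and 11.86 led it, and the last 2 were lowest in pool 3. SREBF1, the transcription factor of lipogenesis, was at 6.60.

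Cholesterol synthesis and uptake had a median percentile of 92.7 over 16 genes. MSMO1, a sterol methyl oxidase, at 13.8, CYP51, lanosterol demethylase, at 13.1 and SC5D, lathosterol oxidase, at 12.9 led it. Bile acid genes had a median of 88.1 over 10. CYP27A1 of the acidic pathway had 12.90, 13.08, 13.06 and 13.03, SLC10A1, the sodium-dependent bile acid importer, had 12.15, 12.72, 12.57 and 12.28, and CYP7A1, the rate-limiting enzyme of the classical pathway, had 10.35, 10.62, 9.98 and 9.83. CYP8B1, which makes the precursor of cholic acid, was among the dimmest genes at 3.81, 3.73, 4.13 and 4.29.

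Of the 25 cytochromes P450 and electron donors measured, 20 were above the upper quartile and 8 among the 100 brightest genes. CYP3A39 had 14.62, 14.74, 14.57 and 14.49, CYP2E1, which oxidises ethanol, had 14.40, 14.56, 14.50 and 14.46, CYP2C33 had 14.14, 13.99, 14.32 and 14.29, CYP2A19 had 14.11, 14.30, 14.22 and 14.02 and CYP3A29 had 13.91, 13.84, 13.76 and 14.01. CYP1A2, a caffeine-oxidising enzyme, was at 6.81, 7.35, 7.78 and 7.32. Members of these families resemble each other, and a probe set may bind several of them, so their separate values are uncertain. The 23 conjugation and aldehyde enzymes had a median percentile of 95.5, led by GSTA1 at 14.4, MGST1, a microsomal glutathione transferase, at 13.7 and UGT2B31, a glucuronosyltransferase, at 13.5. The 28 antioxidant and metal storage genes had a median of 93.2, with FTL and MT1A at 14.7 and FTH1, the heavy chain of ferritin, at 14.2. GULO, the last enzyme of vitamin C synthesis, which pigs retain and humans lack, had 9.79, 10.97, 10.65 and 10.49.

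Housekeeping lists were bright and the ribosome was the most even. Of 53 cytosolic ribosomal proteins, 51 were above the upper quartile, with a median percentile of 98.2. RPS29, RPS18 and RPS21 were the brightest at 14.3, 14.2 and 14.2. RPS27, at 9.07, 9.10, 9.11 and 9.67, was among the ribosomal members with the largest SDs. Translation factors, with EEF1A1 at 14.3, had a median percentile of 91.1 over 21 genes, the respiratory chain and ATP synthase 90.4 over 47, the citrate cycle 92.6 over 15, endoplasmic reticulum chaperones 89.4 over 19 and the proteasome 88.3 over 26. GAPDH of glycolysis averaged 13.9.

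Regulators lay lower. The 30 liver transcription factors and nuclear receptors had a median percentile of 43.0, led by CEBPD and CEBPB, leucine zipper factors, at 11.8 and 11.5 and NR1H4, the bile acid receptor, at 10.65, 10.78, 10.88 and 10.54. The 22 hormone and growth factor receptors had a median of 24.98, and 11 of them were below the lower quartile. ADIPOR2, an adiponectin receptor, at 9.71 and GHR, the growth hormone receptor, at 9.01, 9.28, 9.42 and 9.34 were among the brightest. INSR, the insulin receptor, had 5.67, 5.65, 5.70 and 6.24. PRLR, the prolactin receptor, had 5.11, 5.06, 5.49 and 5.32, ESR1, the oestrogen receptor, averaged 5.33, and LEPR, the leptin receptor, had 3.55, 3.51, 3.75 and 3.43. The 38 cytokines and chemokines had a median percentile of 24.3, with CCL16, CXCL12 at 11.7 and CXCL2 at 11.7 above the rest, and the 21 cell cycle genes 17.1, with none above the upper quartile.

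The tissue label was set against cell type markers. All 13 measured hepatocyte markers, among them ALB, TF, HP, AHSG and TTR, were above the upper quartile, with a median percentile of 99.8. Kupffer and macrophage markers came next at 66.5 over 18 genes, with CD5L, a protein that tissue macrophages secrete, at 12.5 and CTSS, cathepsin S, at 12.2, while CD163, the haemoglobin scavenger receptor, had 8.98, 9.19, 9.10 and 9.10. Stellate and fibroblast markers had a median of 61.3 over 15 genes, with COL3A1, a fibrillar collagen chain, at 12.2, POSTN, periostin, at 11.9 and SPARC at 11.4. COL1A1, a chain of the other main fibrillar collagen, was at 3.95 on the brighter of its 2 probe sets. Endothelial markers had a median of 42.0 over 13 genes, with STAB1, a scavenger receptor of sinusoids, at 10.3. Cholangiocyte markers had 41.0 over 12, T and natural killer cell markers 27.6 over 18, B and plasma cell markers 21.5 over 7 and neutrophil markers 12.4 over 12. SOX9, a nuclear marker of bile ducts, was at 4.58. GNLY, a granule protein of cytotoxic lymphocytes, led the T and natural killer cell list at 7.78. Some markers are shared between lists, as CDH1, the epithelial cadherin at 12.4, counts with cholangiocytes and with periportal hepatocytes.

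Globins were bright, while markers of red cell precursors were not. The probe set of LOC100127142, a beta-globin, had 14.03, 14.35, 13.85 and 13.73 and ranked 47th of all genes, and that of LOC100522428, similar to haemoglobin alpha, had 12.22, 13.05, 12.34 and 11.98. Both were highest in pool 2 and lowest in pool 4. The 4 measured erythroid markers, among them HBE1, an embryonic globin, KLF1 and TFRC, the transferrin receptor, were all below the lower quartile, at a median percentile of 18.0. The source of the globin signal was not tested.

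Markers of tissues that are not liver gave the lower end of the scale. The 122 genes that stood only in such lists had a median of 5.45, and 10% of them lay above 6.97. Of all 8147 genes, 61.8% were brighter than 6.97. The 9 milk and mammary genes had a median percentile of 4.8, brain 13.4, skeletal muscle 16.6, pancreas 17.8, lung, kidney and gonad 19.8, intestine and stomach 21.4 and adipose tissue 23.3. PAEP, beta-lactoglobulin, at 6.44, CSN2, beta-casein, at 5.83 and WAP, whey acidic protein, at 5.69 were the brightest milk genes. The exceptions were ANPEP, aminopeptidase N, at 10.7, CYP19A3, an aromatase, at 10.6 and HSD3B1, a steroid dehydrogenase, at 9.36, the only 3 of the 122 above the upper quartile. Of the 13 adipose markers, 2 that stand in other lists too were also above it, FABP4 at 11.1 and CFD at 9.76. Aminopeptidase N is also known from the bile canaliculus. CYP19A3 was read by 6 probe sets, of which the brightest was used.

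Gene ontology annotations of the deposited table gave classes that were not chosen by hand, and some of them ranked unlike the lists of the same name. Of 126 biological process terms with 10 to 300 genes, translation had the highest median percentile, 97.6 over 51 genes, followed by lipid transport at 94.7 over 12, the tricarboxylic acid cycle at 92.6 over 13 and proton-coupled ATP synthesis at 91.8 over 10. Oxidation and reduction had 83.0 over 140 genes. G protein-coupled receptor signalling had 18.8 over 103 and neuropeptide signalling 17.9. Of 49 cellular component terms, the ribosome had 97.8 over 45 genes, the mitochondrial inner membrane 92.1 over 35 and the mitochondrion 82.6 over 160. Blood coagulation had 60.5 over 16 genes, against 97.9 for the coagulation list, and cholesterol metabolism had 46.3 over 17 and steroid synthesis 57.4 over 14, against 92.7 for the cholesterol list. The extracellular space had only 27.9 over 139 genes and the plasma membrane 32.5 over 233. Genes with any process term had a median of 43.5.

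Pairs of neighbours in the genome were counted among the 100 brightest genes, with gene order from the Sscrofa11.1 gene table, in which 91 of them were placed. Within 2 gene positions of each other lay 5 pairs: APOC3 and APOA1 on chromosome 9, APOE and APOC2 on chromosome 6, C1R and C1S, the proteases that start the classical complement pathway, on chromosome 5, ITIH1 and ITIH3 on chromosome 13, and LOC100153899 and SERPINA5, an inhibitor of activated protein C, on chromosome 7. The other 80 blocks of 100 consecutive ranks held 0 to 6 such pairs, with a median of 1.

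The spread between pools was small for most genes. The SD over the 4 pools had a median of 0.129 log2 units, and 33.1% of genes were below 0.1. The range from the lowest to the highest pool was 0.287 in the median gene, which is 1.22-fold. An SD of 0.5 or more was used to name a gene variable, which held for 144 genes, 1.77% of the 8147. Of these 73 lay above and 71 below the median signal. With 1 group and no repeat of a pool, animal differences cannot be told apart from those of handling or array, and no test was made. By the gap of the highest or lowest pool from its neighbour over the whole range, 424 genes, 5.20% of those ranked, passed Dixon's 95% critical value for 4 samples, where about 1 in 20 would by chance. The pool that stood apart was pool 1 in 143 of them, pool 2 in 98, pool 3 in 80 and pool 4 in 103.

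**Figure D3:**
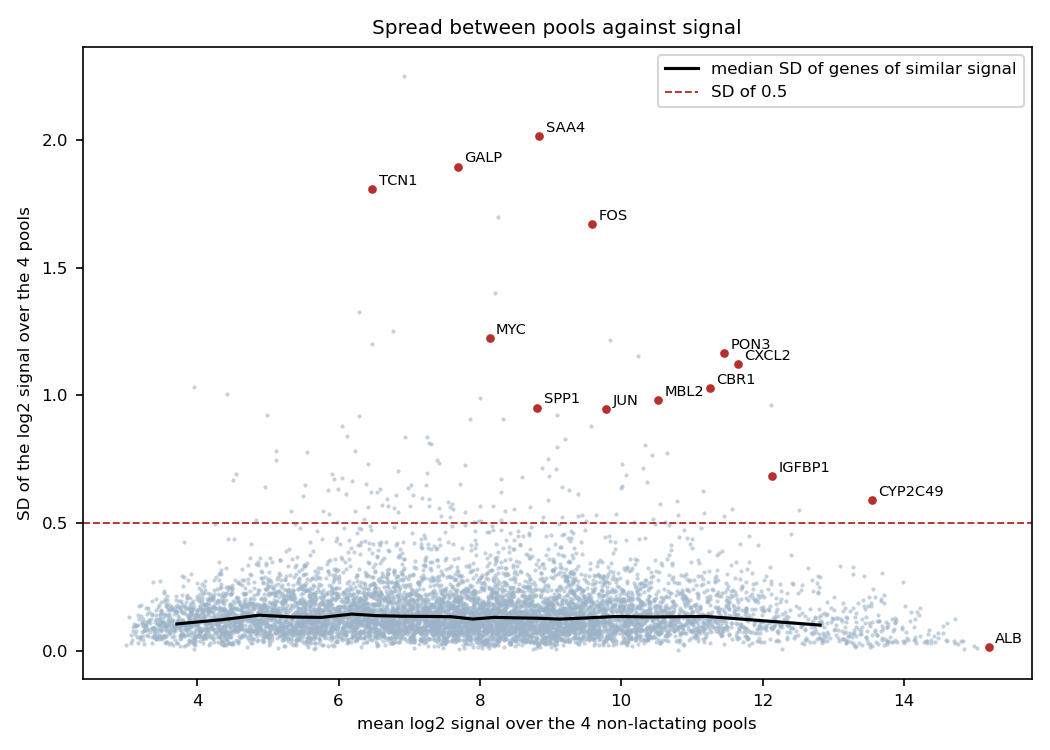
SD of the log2 signal over the 4 pools against the mean, 1 point per gene, with the median SD of genes of similar signal (black line) and the SD of 0.5 used for variable genes (dashed). The line stays between 0.10 and 0.14, and SAA4, GALP and TCN1 are among the few labelled genes far above it.

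The brightest genes were the most even. The median SD was 0.0384 among the 25 brightest and 0.0650 among the 100 brightest. The arrays had been quantile normalised before probes were combined. This fixes which values occur on an array but not which genes hold them, and its part in these small SDs was not tested. The smallest SDs above the upper quartile included those of LOC100154807, similar to an exoribonuclease, at 10.81 in every pool, AMBP, TF, ALB, RPS12, RPL23, ACSL1, HP and RBP4, the retinol binding protein. ACSL1 had 13.34, 13.34, 13.32 and 13.31. Set against genes of similar signal, ribosomal proteins had 0.45 times the usual SD in the median member. Plasma carrier proteins had 0.43 times, hepatocyte markers 0.68 times and protease inhibitors 0.69 times, so such evenness was not particular to the ribosome. CYP2C49 was the exception among the 100 brightest, with 13.07, 14.18, 13.93 and 13.03 and an SD of 0.590, the largest of the 100.

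**Figure D4:**
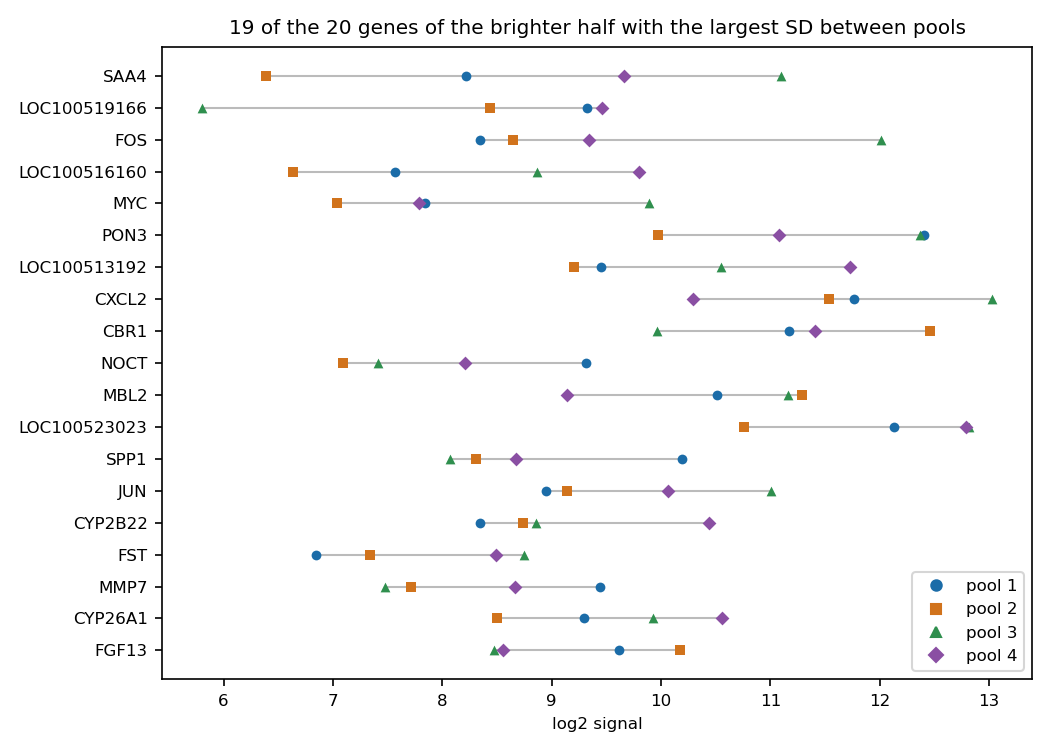
Log2 signal in each of the 4 pools of 19 of the 20 genes above the median signal with the largest SD between pools, from SAA4 at an SD of 2.01 at the top to FGF13 at 0.83, with a grey line over the range. Pool 3 is the highest for FOS, MYC, JUN and CXCL2, and pool 4 for CYP2B22.

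Pool 3 was the highest for the immediate early genes, whose transcripts appear within minutes of a stimulus. FOS, a subunit of the transcription factor AP-1, had 12.01 in pool 3 and 8.34, 8.65 and 9.34 in pools 1, 2 and 4, a 12.7-fold range. JUN, its partner, had 11.001 in pool 3 and 8.95, 9.14 and 10.06 in the others. MYC, a growth factor-induced transcription factor, had 9.89 in pool 3 and 7.84, 7.04 and 7.78 in the others. GADD45G, a growth arrest gene, had 10.43, 10.17, 11.43 and 11.11, DUSP1, a phosphatase of stress kinases, had 10.75, 10.69, 11.65 and 11.43, and KLF9, a glucocorticoid-responsive factor, had 10.45, 10.15, 11.17 and 10.02. CYR61, a matrix protein of the same response, was instead highest in pool 4, at 8.56, 8.26, 9.28 and 9.77. Of the 19 measured members, 11 were highest in pool 3 and 11 lowest in pool 2, while 23.9% of all genes were highest in pool 3 and 24.0% lowest in pool 2. The list's median deviation from each gene's mean was −0.08, −0.36, 0.40 and 0.07 in pools 1 to 4, a span of 0.757, and the span without pool 3 was 0.402. The median SD of its members was 2.95 times that of genes of similar signal, and 6 of them had an SD of 0.5 or more.

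Other genes were highest in pool 3 too, the first 4 of them chosen after their values were seen. LOC100518542, similar to the early growth response factor EGR1, had 9.85, 9.83, 11.35 and 10.18, LOC100524516, similar to an ATF family stress factor, had 6.17, 5.67, 8.54 and 6.67, RHOB, a small GTPase, had 9.61, 9.38, 10.86 and 10.41, and HSP70.2, an inducible heat shock protein, had 10.65, 10.95, 11.91 and 11.17. The next 4 were named for their brightness or spread. IGFBP1 had 11.60, 12.14, 13.10 and 11.70, CXCL2 had 11.76, 11.54, 13.03 and 10.29, and SAA4 had 8.22, 6.38, 11.09 and 9.66, with its highest pool 26.2-fold above its lowest. FST, follistatin, which binds activins, had 6.85, 7.34, 8.74 and 8.50. Others were lowest in pool 3. PNPLA3, a lipid droplet protein, had 9.41 in pool 3 and 10.52, 10.93 and 10.59 in pools 1, 2 and 4, and CBR1, carbonyl reductase, had 9.96 in pool 3 and 11.17, 12.46 and 11.41 in the others. The heat shock protein list as a whole had a median deviation of −0.17, 0.03, 0.06 and −0.02. CCNB2, a mitotic cyclin, had 4.05, 4.83, 6.26 and 4.80.

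Pool 4 was the highest for several genes named for their spread. ECI2, an enoyl-CoA isomerase of peroxisomes and mitochondria, had 10.14 in pool 4 and 8.73, 8.89 and 9.27 in pools 1 to 3. ANGPTL4, an inhibitor of lipoprotein lipase, had 9.57, 9.23, 10.50 and 10.76, CYP2B22, a phenobarbital-responsive P450, had 8.35, 8.74, 8.86 and 10.44, and CYP26A1, which breaks down retinoic acid, had 9.29, 8.50, 9.93 and 10.56. The lists that hold such enzymes were not high in pool 4. Pool 4 was the highest for 3 of 23 fatty acid oxidation genes, 6 of 25 P450 genes and 3 of 23 conjugation genes, against 27.4% of all genes, and pool 2 was the highest for 13, 11 and 9 of them. GSTM3, a glutathione transferase, had 7.21, 6.39, 7.04 and 8.39. S100A9, a calcium-binding protein of neutrophils, had 5.50 in pool 4 and 4.10, 4.10 and 4.32 in pools 1 to 3.

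Pool 4 was the lowest for 12 of 23 interferon-stimulated genes and for the 2 complement genes with the largest SD. MBL2, mannose-binding lectin, had 9.14 in pool 4 and 10.52, 11.29 and 11.16 in pools 1 to 3. FCN2, a ficolin of the same lectin pathway, had 11.09, 11.47, 10.31 and 9.74. ISG12(A), an interferon-induced gene, had 9.30 in pool 4 and 10.68, 10.94 and 10.83 in the others. RSAD2, viperin, had 7.70, 8.30, 7.49 and 6.96, IFIT1, which binds foreign RNA, had 6.92, 7.84, 7.06 and 6.37, OAS1, an RNA sensor, had 6.98, 6.66, 6.36 and 5.66, and USP18, a brake on the response, had 8.32, 8.07, 8.07 and 7.17. These 5 were the members of the list with an SD of 0.5 or more. Of all genes 22.2% were lowest in pool 4. In pool 2, 12 of the 23 were highest, against 26.4% of all genes. Their median deviation was 0.12, 0.17, −0.05 and −0.18, a span of 0.350, and without pool 4 the span was 0.180.

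Pool 1 was the highest for several genes of bile duct epithelium and connective tissue. SPP1, osteopontin, had 10.19 in pool 1 and 8.31, 8.07 and 8.68 in pools 2 to 4, and its SD without pool 1 was 0.306, against 0.952 with it. MMP7, matrilysin, had 9.45, 7.71, 7.47 and 8.66, KRT19, a keratin of bile ducts, had 7.28, 6.29, 5.79 and 6.48, and EPCAM, an adhesion molecule of the same cells, had 8.51, 7.45, 7.30 and 7.92. All 4 were lowest in pool 3. CDH1 and KRT18, which hepatocytes express too, did not follow. CDH1 had 12.30, 12.14, 12.46 and 12.76, and KRT18 had 11.35, 11.49, 11.35 and 11.80. SOX9 stayed between 4.54 and 4.60, below the median of 5.45 of the markers of other tissues. At so dim a signal it cannot show whether it followed. Of the 12 cholangiocyte markers measured, 5 were highest in pool 1, 4 were highest in pool 4 and 6 were lowest in pool 3. Their median deviation was −0.01, −0.16, −0.13 and 0.02 in pools 1 to 4, so the list as a whole was not highest in pool 1. LUM, a matrix proteoglycan, had 5.98, 5.56, 4.89 and 4.85, and of the 15 stellate and fibroblast markers 8 were highest in pool 1 and 9 lowest in pool 3, against 22.3% and 23.8% of all genes. EGFR, the receptor of epidermal growth factor, had 9.88, 9.13, 8.64 and 8.97. TCN1, haptocorrin, a vitamin B12 binder, had 9.18 in pool 1 and 5.71, 5.51 and 5.50 in pools 2 to 4. NOCT, nocturnin, a rhythmically expressed phosphatase of NADPH in mouse liver, had 9.31, 7.10, 7.41 and 8.21.

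Pool 1 was the lowest for mitochondrial and proteasome genes. Of 47 genes of the respiratory chain and ATP synthase 32 were lowest in pool 1, and so were 21 of 26 proteasome genes, 10 of 15 citrate cycle genes and 10 of 16 heat shock proteins, against 30.0% of all genes. The shifts were small. The median deviation in pools 1 to 4 was −0.13, 0.09, 0.07 and 0.00 for the respiratory chain, −0.17, 0.13, 0.08 and −0.03 for the proteasome and −0.17, 0.11, 0.02 and −0.01 for the citrate cycle. NDUFB6, a subunit of complex I, had 8.10, 8.73, 8.75 and 8.27, PSMD6, a lid subunit of the proteasome, had 9.32, 9.94, 9.94 and 9.75 and CS, citrate synthase, had 11.32, 11.69, 11.13 and 11.35, an exception that was lowest in pool 3. Without pool 1 the span of the pool medians was 0.107 for the respiratory chain, against 0.220 with it, 0.166 for the proteasome, against 0.294, and 0.123 for the citrate cycle, against 0.285. Pool 1 was also the pool with the largest difference between 3′ and 5′ control probe sets, 5.02 against 4.14 to 4.49, and the part of this in the shifts was not tested. HSD17B2, which inactivates oestradiol, had 11.72 in pool 1 and 12.59, 12.93 and 12.82 in the others, and SERPINC1, antithrombin, had 10.75 in pool 1 and 11.86, 11.85 and 11.33 in the others.

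Pool 2 was the highest for several enzymes and the lowest for others. CBR1 had its highest value there, 12.46, and so did GSTA4, a glutathione transferase of lipid aldehydes, with 8.34, 10.03, 9.45 and 8.51, UOX, urate oxidase, with 7.51, 9.09, 8.55 and 8.08, GPX3, the plasma glutathione peroxidase, with 7.71, 9.16, 8.25 and 8.05, and CYP2C49. In these last 4, pools 2 and 3 were above pools 1 and 4. As GSTA4, UOX and CYP2C49 were chosen after their values were seen, this shared order is a description only. FGF13, an intracellular member of its family, had 9.62, 10.17, 8.47 and 8.55. PON3, a lactonase carried on high density lipoprotein, had 9.97 in pool 2 and 12.41, 12.36 and 11.08 in pools 1, 3 and 4. LOC100523023, the nonspecific 5-aminolevulinate synthase that starts haem synthesis, had 10.76 in pool 2 and 12.13, 12.82 and 12.79 in the others. GALP, galanin-like peptide, had 5.08 in pool 2 and 8.72, 7.58 and 9.38 in the others, and LYZ, lysozyme, had 6.27 in pool 2 and 7.88, 7.31 and 7.56 in the others.

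The largest SD of all, 2.25, belonged to LOC100521080, whose annotation names no protein, with 6.96, 4.00, 9.48 and 7.28. LOC100519166, likewise unnamed, had 5.80 in pool 3 and 9.32, 8.44 and 9.46 in pools 1, 2 and 4. LOC100516160, similar to nebulin, had 7.57, 6.63, 8.87 and 9.80, and LOC100513192 had 9.45, 9.21, 10.55 and 11.72. These 4 are single probe sets of provisional genes. Among the 12765 probe sets without a single symbol, 219 had an SD of 0.5 or more, and 32 were brighter than the 100th ranked gene.

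Genes of the lobule's zones are given without a test of the zones against each other. Periportal genes, which work on blood from the gut, had a median percentile of 96.8 over 13 genes and a median SD of 1.29 times that of genes of similar signal. Pericentral genes, near the draining vein, had 87.8 over 11 genes and 2.23 times. An SD of 0.5 or more held for 1 periportal gene, APOA4, an apolipoprotein, with 6.29, 6.66, 7.56 and 7.57, and for 0 pericentral genes. PCK1, with an SD of 0.493, was next among periportal genes, and TAT, tyrosine aminotransferase, had 11.84, 11.51, 11.33 and 11.25. In the pericentral zone OAT, ornithine aminotransferase, had 10.96, 11.12, 10.30 and 10.46 and GULO had an SD of 0.497. RGN, regucalcin, varied less, at 13.79, 13.91, 13.65 and 13.75. AMACR, a racemase of bile acid side chain oxidation, had 9.27, 10.21, 11.14 and 10.71, and the 10 bile acid genes had 2.24 times the SD of genes of similar signal. The conjugation list had 2.01 times and the P450 list 1.96 times, with CYP2C42 at 9.47, 9.92, 10.94 and 9.72.

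**Figure D5:**
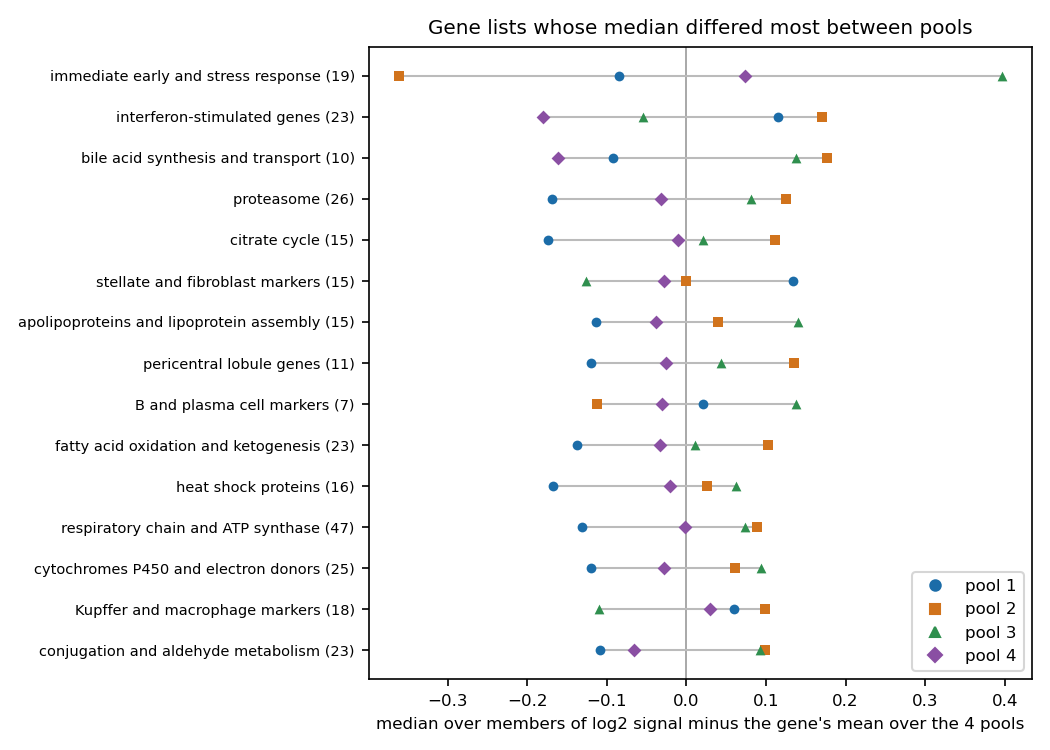
Median over the members of each list of the log2 signal minus the gene's mean over the 4 pools, 1 symbol per pool, for the 15 lists whose pool medians span 0.2 or more (number of members in brackets). The immediate early list has the widest span, 0.757, with pool 3 at the high end and pool 2 at the low end.

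In 15 of the 51 lists with at least 5 measured members the pool medians spanned 0.2 log2 units or more. Without pool 1 this held for 5 lists, without pool 2 for 9, without pool 3 for 10 and without pool 4 for 13. The fall was largest without pool 1. A span over fewer pools tends to be smaller, so some fall comes by construction. Kupffer and macrophage markers were highest in pool 2 for 10 of 18 genes and lowest in pool 3 for 10, with a span of 0.208 that was 0.1003 without pool 3. Endoplasmic reticulum chaperones were highest in pool 3 for 13 of 19 genes, among them HSPA5, the chaperone BiP, with 13.12, 13.10, 13.35 and 13.18. Complement genes were highest in pool 2 for 12 of 22 genes and lowest in pool 4 for 11. The share of all genes that was highest in pools 1 to 4 was 22.3%, 26.4%, 23.9% and 27.4%, and the share lowest was 30.0%, 24.0%, 23.8% and 22.2%. Genes of a list are not independent of each other.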

How the data were processed

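Total RNA of frozen liver was isolated with Trizol and purified on columns, labelled with biotin and hybridised to Affymetrix porcine arrays, per the labels' protocols. The deposited values, made by the authors, are log2 signals of 24123 probe sets, produced with Affymetrix Expression Console and RMA per the submitters' processing notes, with versions not given in the sources used here. RMA subtracts background, gives all arrays the same distribution of values by quantile normalisation and combines probes into 1 value per set, and which arrays it was run on together is not given. A second deposited table holds the same log2 values to 2 decimals and was used as an alternative.

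From these values, 124 control probe sets were dropped, leaving 23999. A single gene symbol was held by 11234, updated with the Sscrofa11.1 gene tables through the Entrez identifier for 9065, a RefSeq transcript for 29 and another accession for 6, while 2134 kept the deposited symbol. Each of 8147 genes was represented by its probe set of highest mean in the 4 non-lactating pools. Mean, SD, range and percentile rank were computed per gene and list with Python 3.11.15, pandas 2.3.3 and numpy 2.4.6, and plotted with matplotlib 3.10.9. There was no comparison between groups and no test. The number of arrays limits the precision, and nothing in the labels describes the animals of a pool. The scripts were tested on simulated data.

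Genes were named by a rule: the 25 brightest, the 3 brightest and the 2 with the largest SD of each list, the 20 with the largest SD above the median signal, the 10 with the smallest SD above the upper quartile and the 5 whose probe sets disagreed most, 250 genes in all. Another 46 were chosen after their values were seen: the globins, the genomic neighbours, IGF1, IGFALS, OTC, ASL, PPARA, SREBF1, ACADVL, PRLR, ESR1, LEPR, CYP8B1, CYP2A19, CYP3A29, CYP2C42, CYP2C49, FTH1, LBP, COL1A1, SOX9, CD163, EPCAM, CYR61, RSAD2, OAS1, USP18, GSTA4, UOX, HSD17B2, TCN1, GALP, LOC100521080 and those named so in the text among them. Some genes that the rule takes are not reported here. The genes and lists were chosen with earlier results of these data known.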

Additional observations from a re-analysis of the deposited data

Results flagged for a closer look

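In 17 of the 296 named genes, 5.74%, the highest or lowest pool lay so far from the other 3 that the gap, as a share of the whole range over the 4 pools, was above Dixon's 95% critical value. Chance gives about 1 in 20 genes, and 5.20% of all 8147 genes were past it. None of the 51 lists with at least 5 measured members was.

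Pool 1 stood apart in ARG1, high at 13.06 with a share of 0.959, and in TCN1, high at 9.18 with 0.944. It was low in LBP at 6.74 with 0.925 and in PSMD1, a base subunit of the proteasome, at 10.94 with 0.860.

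Pool 2 was high in COX7C, a cytochrome oxidase subunit, at 12.996 with a share of 0.885 and in FTL at 14.77 with 0.858. It was low in XBP1, a transcription factor of the unfolded protein response, at 11.93 with 0.894 and in WAP at 5.59 with 0.851.

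Pool 3 was high in DDIT3, a stress-induced transcription factor, at 8.63 with a share of 0.890 and in ITIH2 at 14.12 with 0.861.

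Pool 4 was high in RPS27 at 9.67 with a share of 0.929, in INSR at 6.24 with 0.924, in MSMO1 at 13.84 with 0.905 and in S100A9 at 5.50 with 0.842. It was low in ACOX2, a branched chain acyl-CoA oxidase, at 11.62 with 0.879, in ADIPOR2 at 9.44 with 0.854 and in ISG12(A) at 9.30 with 0.843.

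The size of these gaps differed widely. XBP1 had a range of only 0.07 log2 units and ITIH2 one of 0.10, while TCN1 had one of 3.68.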

How the results depend on the processing

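Of the 100 brightest genes 76 stayed with the probe set of median signal and 80 with symbols as deposited. Among genes with a single probe set 74 stayed, a number fixed by construction since the other 26 have several. Leaving out a pool kept 96 to 99, and lists above the 75th percentile numbered 25 to 29. Genes with an SD of 0.5 or more numbered 144, and 143 to 157 without a pool (142 to 157 with the probe sets as chosen on all 4), but 89 by median absolute deviation and 73 among genes above the median signal. The 15 lists whose pool medians span 0.2 became 5 to 13 without a pool (5 without pool 1, 9 without pool 2), 23 with means over members and 25 with members above the median signal. The causes were not tested, apart from fewer genes entering the 73. Values rounded to 2 decimals changed none of the counts of brightest genes, of lists above the 75th percentile or of genes with an SD of 0.5 or more. They were not run for the pool medians of lists or for the counts without a pool. No value of a kind that has a direction turned it. No paired analysis was possible because a single group was described and no test was made. Depth as signal over background was not given with these arrays, so a dim gene cannot be told from an absent one.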
